A study of Mus musculus with 12 samples.

Results

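The MHC class II genes and Ciita are 10 genes of the mouse: H2-Aa, H2-Ab1, H2-Eb1, Cd74, Ciita, H2-DMa, H2-DMb1, H2-DMb2, H2-Oa and H2-Ob. They were chosen by name, by taking every probe that is not a control and carries 1 of these gene names in the scanner output. This gave 15 of the 39429 probes and 10 of the 31131 gene names on the array. Of the 15 probes, 13 passed the filter on dim signal, with at least 1 probe for each gene. The family was put together because H2-Aa, H2-Eb1 and Cd74 had been seen to be lower in G-CSF blood than in marrow. In each comparison that holds either of these groups the members' values are therefore a description. Counts of members past limma's threshold are given there beside the share of all genes, with no p and with nothing read from them. Only CWHM-823+tGro-b blood against AMD3100 blood uses neither group, and adjusted p-values of members are given there alone.

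RNA came from LSK cells (lineage-negative, Sca-1-positive, Kit-positive), the fraction of blood-forming cells that holds stem cells and early progenitors, of male DBA2/J mice. The first group was sorted from peripheral blood of mice that had received 9 injections of G-CSF, a cytokine that drives the making of neutrophils, within 5 days. The second came from the blood of mice given CWHM-823, a VLA-4 inhibitor, with tGro-b, a truncated CXCR2 agonist, at a time that the labels do not give. Another came from blood taken 1 hour after AMD3100, a CXCR4 antagonist. The last was bone marrow of mice injected with PBS. Each group had 3 arrays, 12 in all. Blood of mice without a mobilizing agent was not measured, so in each comparison with marrow the treatment and the tissue cannot be told apart. In these bulk samples fewer cells of a type and less RNA per cell cannot be told apart either.

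Levels below are the log2 processed signal of a probe minus the log2 75th percentile of its array, so that 0 is the signal at that percentile. The percentile lay between 1146 and 2724 signal units, and 70.2 to 83.1% of probes were well above background on an array. Kit, the receptor that defines the sort, stood at 3.05 to 3.64 on all 12 arrays. Ly6a, which encodes Sca-1, stood at 0.61 to 0.81 on the G-CSF arrays and at -1.38 to -0.25 on the other 9. Marrow array 3 had far more signal from neutrophil genes than any other array: the summed level of 8 neutrophil genes, each relative to the array's 75th percentile, was 31.4 there, against 1.53 to 3.23 on the other 11 arrays. Counts that rest on marrow are therefore also given without that array. Precision is limited by having 3 arrays a group. Nothing in the labels states that separate mice were used for each array, so a p-value here speaks only of the spread among these samples, which may be technical.

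MHC class II molecules are pairs of an alpha and a beta chain that show peptides from the endosome to helper T cells. In the mouse the I-A molecule is made of H2-Aa and H2-Ab1 and the I-E molecule of an E alpha chain and H2-Eb1. CD74, the invariant chain, fills the groove of a new class II molecule and brings it to the endosome, where H2-DM helps to exchange its last fragment for a peptide and H2-O restrains H2-DM. CIITA is the coactivator that switches on the class II genes, through factors already bound at a conserved pair of promoter elements, the X and Y boxes. Class II is best known from B cells, dendritic cells and macrophages.

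Sequences upstream of the transcription start were at hand for 7 of the 10 genes (RefSeq, GRCm38.p6, 8 promoters). A simple spelling of the conserved pair, GNAAC followed 15 to 35 bases later on the same strand by GATTGG, was searched on both strands from 250 bases before to 50 bases after the start. It was chosen after the sequences had been seen. It was present in the promoters of 5 genes (H2-Aa, H2-DMb1, H2-Eb1, H2-Oa and H2-Ob) and in 1.21% of all 32851 promoters, while GATTGG alone was in 16.1% and GNAAC alone in 84.8%. The 120 bases before the start are shown for H2-Aa and H2-Eb1, the 2 genes furthest below marrow in G-CSF blood. H2-DMb1 and H2-Oa, which carry the same pair and moved less, are shown after them. In this order the stretches lie at chr17:34287824-34287943 (minus strand), chr17:34305747-34305866, chr17:34153071-34153190 and chr17:34092259-34092378 (plus strand), and capitals mark the matched letters. The reference strain is not the strain of these mice, and a match is a description, not a binding site.
H2-Aa: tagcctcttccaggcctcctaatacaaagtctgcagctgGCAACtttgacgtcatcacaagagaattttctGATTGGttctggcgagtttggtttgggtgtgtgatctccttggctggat
H2-Eb1: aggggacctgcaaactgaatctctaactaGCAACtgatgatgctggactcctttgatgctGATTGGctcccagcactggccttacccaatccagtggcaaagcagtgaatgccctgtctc
H2-DMb1: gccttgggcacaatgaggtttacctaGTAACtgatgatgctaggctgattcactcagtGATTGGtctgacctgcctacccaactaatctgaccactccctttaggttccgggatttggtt
H2-Oa: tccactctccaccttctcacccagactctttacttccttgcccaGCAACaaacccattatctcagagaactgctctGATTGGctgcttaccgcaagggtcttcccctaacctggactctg

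H2-Aa, the alpha chain of I-A, was measured by a probe at chr17:34421285-34421344 (mm9, minus strand). Its level was -3.37, -4.23 and -3.86 on the G-CSF arrays, -1.28, -1.39 and -2.56 on the CWHM-823+tGro-b arrays, -1.30, -2.05 and -0.04 on the AMD3100 arrays, and 0.14, 0.89 and 1.31 on the marrow arrays. The marrow arrays lay above all 9 blood arrays and the G-CSF arrays below all others, while the CWHM-823+tGro-b and AMD3100 arrays overlapped. H2-Aa was thus the member that stood lower than marrow in each of the 3 blood groups. Against marrow the log2 difference was -4.60 ± 0.52 (SE) in G-CSF blood, -2.53 ± 0.52 in CWHM-823+tGro-b blood and -1.91 ± 0.52 in AMD3100 blood. G-CSF array 2 was not well above background for this probe. With normexp background correction the G-CSF difference from marrow was smaller, -3.02.

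H2-Ab1, the beta chain that pairs with H2-Aa, did not follow it. Its level was 0.91, 0.39 and 0.63 on the G-CSF arrays, 2.38, 1.50 and 1.74 on the CWHM-823+tGro-b arrays, 2.13, 1.27 and 2.05 on the AMD3100 arrays, and 0.94, 0.97 and 1.14 on the marrow arrays. Marrow lay just above G-CSF blood and below both other blood groups, which overlapped each other. The differences from marrow were -0.37 ± 0.30 in G-CSF blood, 0.86 ± 0.30 in CWHM-823+tGro-b blood and 0.80 ± 0.30 in AMD3100 blood. Those of G-CSF blood from the other blood groups were -1.23 ± 0.30 (CWHM-823+tGro-b) and -1.17 ± 0.30 (AMD3100).

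The array holds a second probe for H2-Ab1, which reads nearly the same bases and so is no independent check on these values. The probes lie at chr17:34406296-34406355 and chr17:34406305-34406364 (mm9, plus strand), share 51 of their 60 bases and differ within them by 1 substitution, T51C, counted from 1 at the 5′ end of the first. The 30 bases around it are printed to show how alike the probes are, with the differing base in capitals. Over the 12 arrays the probes had a Pearson r of 0.977 and a mean absolute difference of 0.13 in log2 level. The second gave -0.36 ± 0.31 for G-CSF blood against marrow, 1.00 ± 0.31 for CWHM-823+tGro-b blood and 0.84 ± 0.31 for AMD3100 blood. By this probe the marrow arrays overlapped both the G-CSF and the AMD3100 arrays, so that separation rests on the first probe.
H2-Ab1, first probe: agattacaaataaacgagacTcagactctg
H2-Ab1, second probe: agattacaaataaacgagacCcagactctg

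Within each array the signal of H2-Aa relative to H2-Ab1 also differed between groups, a measure that does not depend on how arrays were scaled. The log2 ratio of the probes was -4.28, -4.62 and -4.49 on the G-CSF arrays, -3.66, -2.89 and -4.30 on the CWHM-823+tGro-b arrays, -3.43, -3.32 and -2.09 on the AMD3100 arrays, and -0.79, -0.07 and 0.17 on the marrow arrays. Probes differ in brightness, so only the change between groups can be read, and it shows unequal change of the chains, not which of them changed. All 9 blood arrays lay below the 3 marrow arrays. For H2-Eb1 over H2-Ab1 the ratio ran from -4.92 to -2.46 on the G-CSF arrays, -0.96 to -0.63 on the CWHM-823+tGro-b arrays, -1.06 to -0.51 on the AMD3100 arrays and -1.59 to -0.68 on the marrow arrays. There the G-CSF arrays alone stood below the other 9.

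**Figure D1:**
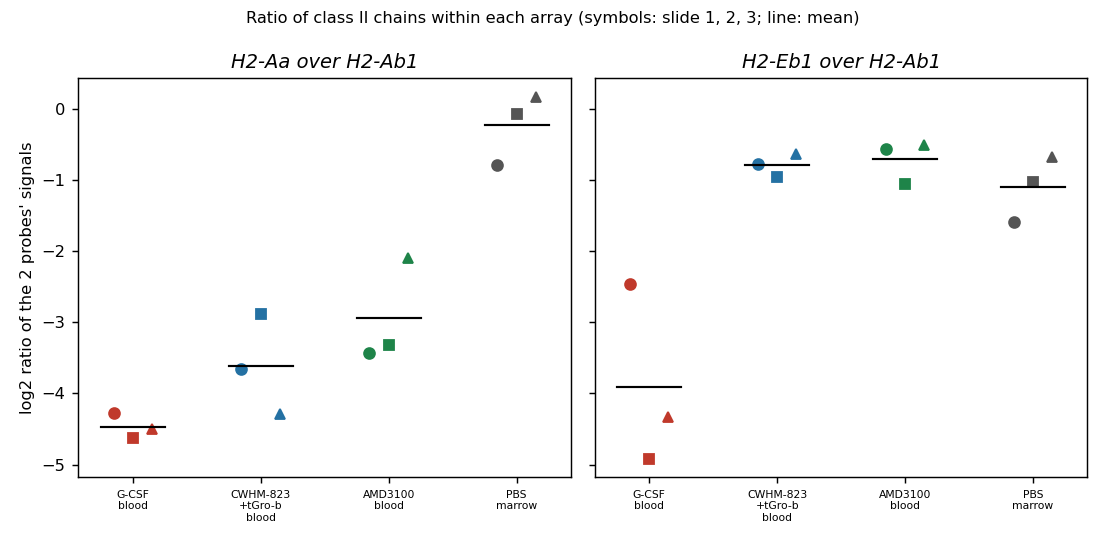
The log2 ratio of the signals of H2-Aa to H2-Ab1 (left) and of H2-Eb1 to H2-Ab1 (right) on each array, by group; circles, squares and triangles are slides 1, 2 and 3 and the line is the mean of 3 arrays. The H2-Aa ratio lay between -4.62 and -2.09 on the 9 blood arrays and between -0.79 and 0.17 in marrow, while the H2-Eb1 ratio was low on the G-CSF arrays only.

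H2-Eb1, the beta chain of I-E, was measured at chr17:34453075-34453134 (mm9, plus strand). It stood at -1.55, -4.53 and -3.70 on the G-CSF arrays, 1.61, 0.53 and 1.11 on the CWHM-823+tGro-b arrays, 1.57, 0.21 and 1.54 on the AMD3100 arrays, and -0.65, -0.06 and 0.45 on the marrow arrays. All G-CSF arrays lay below the other 9, and G-CSF array 2 was not well above background. Marrow lay below CWHM-823+tGro-b blood without overlap and overlapped AMD3100 blood. The log2 difference from marrow was -3.17 ± 0.66 in G-CSF blood, 1.17 ± 0.66 in CWHM-823+tGro-b blood and 1.19 ± 0.66 in AMD3100 blood. G-CSF blood differed by -4.34 ± 0.66 from CWHM-823+tGro-b blood and by -4.37 ± 0.66 from AMD3100 blood.

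The G-CSF value of H2-Eb1 varied most between slides. Within slides 1, 2 and 3 its difference from marrow was -0.90, -4.47 and -4.15, and normexp background correction gave -2.10 over all arrays. The H2-Aa difference within the same slides was -3.52, -5.12 and -5.17.

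Cd74, the invariant chain, was measured at chr18:60972075-60972132 (mm9, plus strand). Its level was 0.19, -0.78 and -0.28 on the G-CSF arrays, 2.80, 1.96 and 1.74 on the CWHM-823+tGro-b arrays, 2.49, 1.81 and 3.11 on the AMD3100 arrays, and 1.45, 1.85 and 2.71 on the marrow arrays. The other 3 groups overlapped each other and the G-CSF arrays lay below all of them. Against marrow the difference was -2.30 ± 0.44 in G-CSF blood, 0.17 ± 0.44 in CWHM-823+tGro-b blood and 0.47 ± 0.44 in AMD3100 blood. G-CSF blood differed by -2.46 ± 0.44 from CWHM-823+tGro-b blood and by -2.76 ± 0.44 from AMD3100 blood, and within the 3 slides the difference from AMD3100 blood ran from -3.39 to -2.30.

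**Figure D2:**
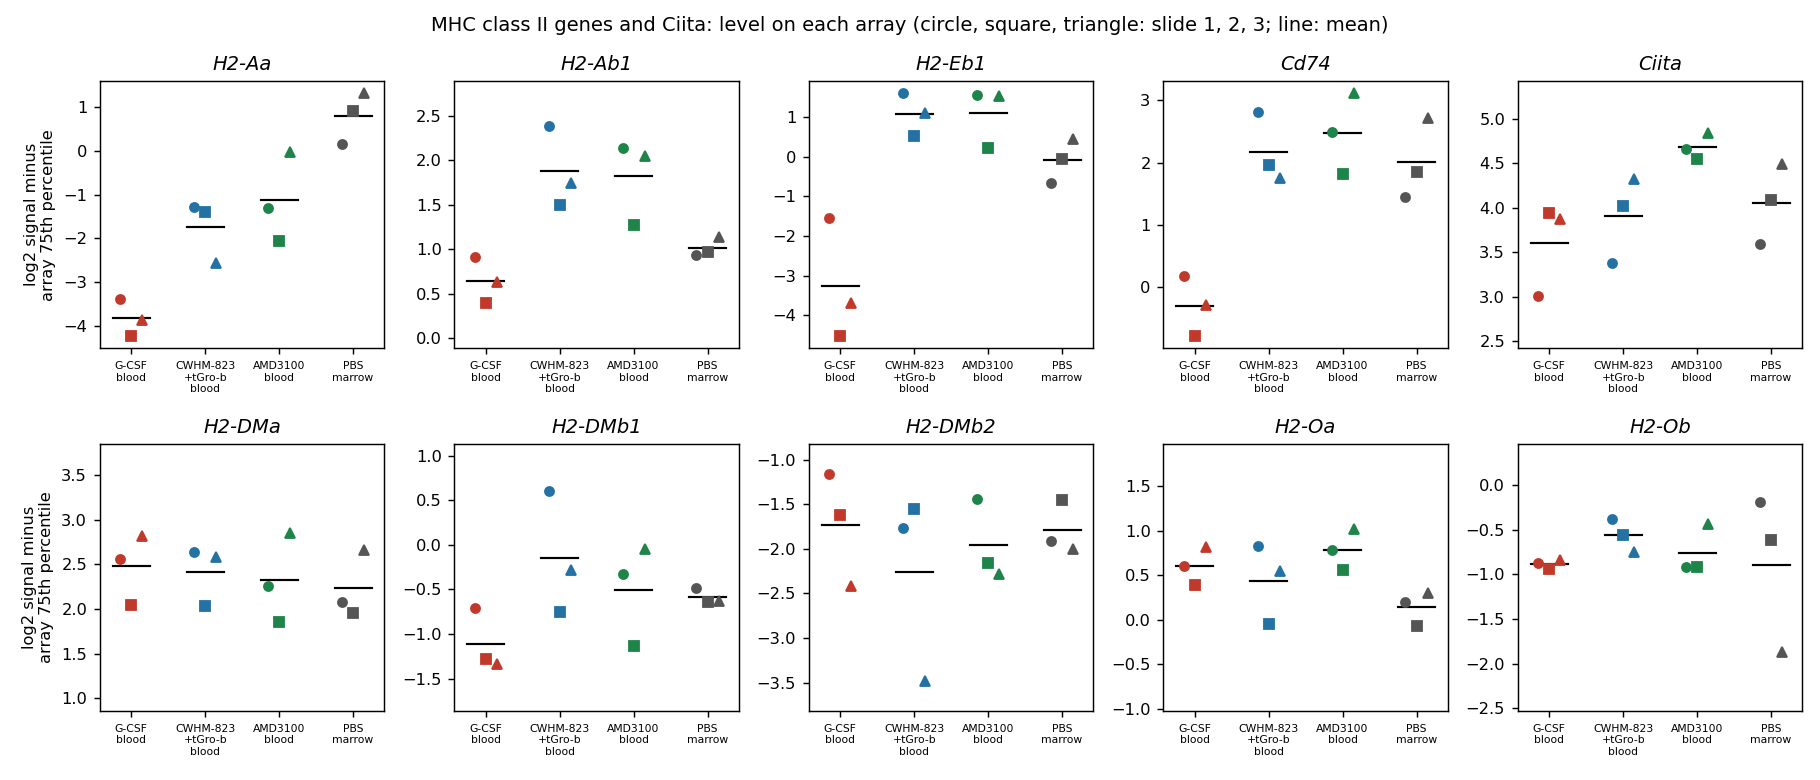
Level of each of the 10 genes (1 probe per gene, the brightest) on each of the 12 arrays, as log2 signal minus the array's 75th percentile, with circles, squares and triangles for slides 1, 2 and 3 and a line at the mean of 3 arrays; each panel has its own scale. H2-Aa is highest in marrow, H2-Eb1 and Cd74 are low on the 3 G-CSF arrays only, and H2-DMa overlaps between all groups.

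Ciita, the coactivator, has 3 probes on the array, which gave different patterns. Probes at chr16:10491091-10491150 and chr16:10492271-10492330 (mm9, plus strand) carry the same transcript identifier in the scanner output, and the other lies at chr16:10526568-10526627. That one was the brightest and so stands for the gene. Whether its signal is that of Ciita was not tested.

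The brightest Ciita probe gave 3.00, 3.94 and 3.88 on the G-CSF arrays, 3.38, 4.02 and 4.32 on the CWHM-823+tGro-b arrays, 4.66, 4.55 and 4.84 on the AMD3100 arrays, and 3.59, 4.09 and 4.49 on the marrow arrays. AMD3100 blood lay above the other 3 groups, which overlapped. The second probe, the first by position, gave -2.86, -2.43 and -2.95 on the G-CSF arrays, -2.45, -1.72 and -1.60 on the CWHM-823+tGro-b arrays, -1.83, -2.73 and -1.99 on the AMD3100 arrays, and -2.09, -2.21 and -2.36 on the marrow arrays. By it the G-CSF arrays lay below marrow and AMD3100 blood was not the highest. The Pearson r of these probes over the 12 arrays was 0.440. For G-CSF blood against marrow they gave -0.45 ± 0.34 and -0.53 ± 0.31, and for AMD3100 blood against marrow 0.63 ± 0.34 and 0.03 ± 0.31. The remaining probe was well above background on 5 of the 12 arrays and did not pass the filter.

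The peptide exchange genes differed less between groups. H2-DMa, the alpha chain of H2-DM, lay between 1.85 and 2.86 on all 12 arrays, with overlap between all groups and differences from marrow of 0.24 ± 0.33 in G-CSF blood, 0.18 ± 0.33 in CWHM-823+tGro-b blood and 0.09 ± 0.33 in AMD3100 blood. H2-DMb1, a beta chain of H2-DM, stood at -0.71, -1.28 and -1.33 on the G-CSF arrays, against -0.49, -0.64 and -0.63 on the marrow arrays, a difference of -0.52 ± 0.37 without overlap. For H2-DMb1, G-CSF blood differed by -0.97 ± 0.37 from CWHM-823+tGro-b blood and by -0.60 ± 0.37 from AMD3100 blood, both with overlap. For its close copy H2-DMb2, G-CSF blood differed by 0.06 ± 0.49 from marrow. From CWHM-823+tGro-b blood it differed by 0.53 ± 0.49 and from AMD3100 blood by 0.23 ± 0.49. The probes of these near-identical neighbours may share signal, so both are uncertain.

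The H2-O genes restrain H2-DM. H2-Oa, the alpha chain, stood at 0.60, 0.39 and 0.82 on the G-CSF arrays, 0.82, -0.05 and 0.55 on the CWHM-823+tGro-b arrays, 0.78, 0.55 and 1.02 on the AMD3100 arrays, and 0.20, -0.07 and 0.30 on the marrow arrays. The G-CSF and AMD3100 arrays lay above marrow, by 0.46 ± 0.27 and 0.64 ± 0.27. H2-Ob, the beta chain, differed from marrow by 0.01 ± 0.37 in G-CSF blood by its brightest probe and by -0.38 ± 0.33 by a second probe. Against CWHM-823+tGro-b blood the brightest probe gave -0.32 ± 0.37 without overlap and the second -0.49 ± 0.33 with overlap. Against AMD3100 blood the brightest gave -0.12 ± 0.37 with overlap and the second -0.57 ± 0.33 without overlap. By the brightest probe the marrow arrays alone spread from -1.88 to -0.19. The remaining H2-Ob probe was well above background on 1 of 3 arrays in each group and did not pass the filter.

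**Figure D3:**
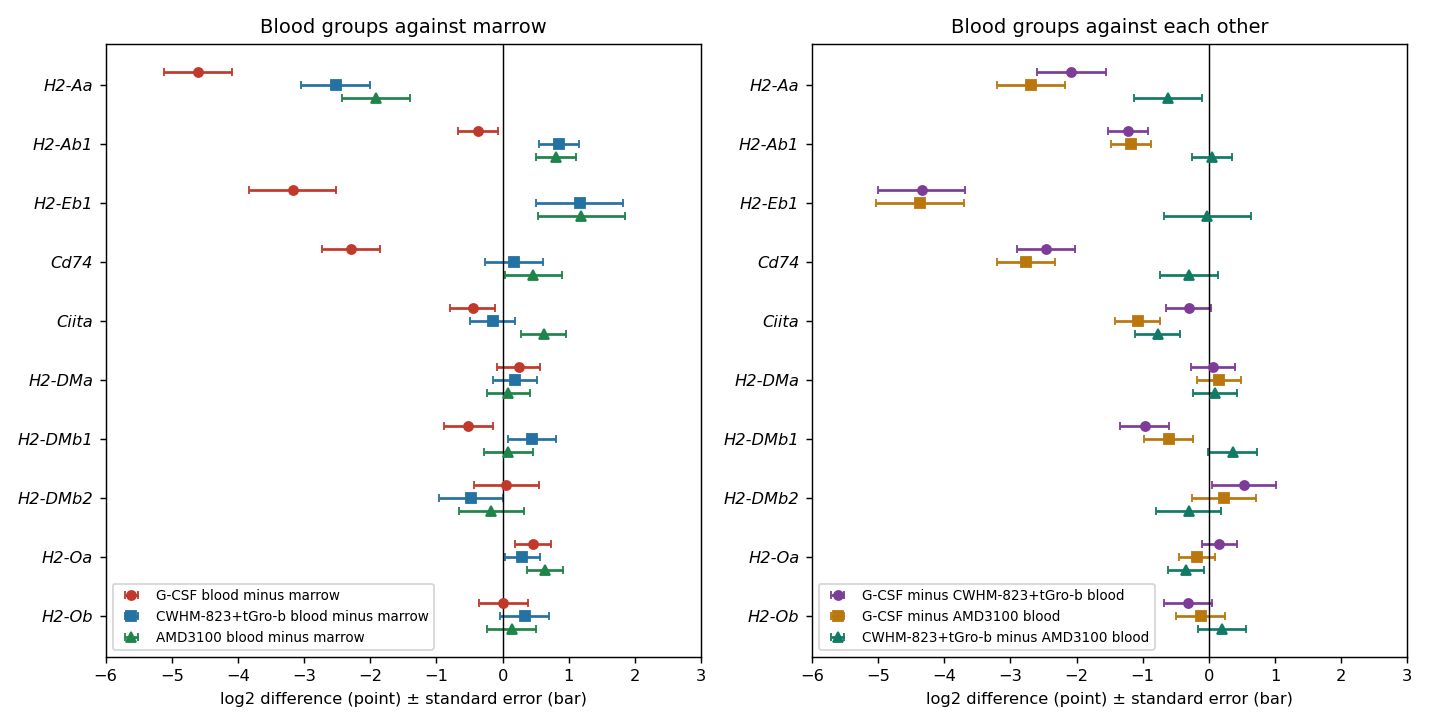
Log2 difference of each gene with its standard error, for the 3 blood groups against marrow (left) and between the blood groups (right). Against marrow, H2-Aa is below 0 in all 3 blood groups, H2-Eb1 and Cd74 in G-CSF blood only, and the H2-DM and H2-O genes lie within about 0.7 of 0.

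Counts of calls are set against the share of all 23795 genes that passed the same test (limma, Benjamini-Hochberg adjusted p under 0.05). In G-CSF blood against marrow 3 of 10 members (H2-Aa, H2-Eb1 and Cd74) were called, all lower, where 0.555% of all genes were called lower. H2-Eb1 missed the threshold with quantile normalization, with the authors' values and with no filter on dim probes, where the count was 2. The slide block again gave 3, where 11.3% of all genes were called lower. These calls chose the family, so nothing is read from them. Without marrow array 3 the count was 1 (H2-Aa), as it was without marrow array 2 or G-CSF array 3. On that array H2-Aa, H2-Ab1, H2-Eb1 and Cd74 were at their highest in marrow and the neutrophil genes stood out. The part of those cells in the result was not tested. Without it the differences were -4.34 for H2-Aa, -2.90 for H2-Eb1 and -1.94 for Cd74. In 5 members (also H2-Ab1 and H2-DMb1) the G-CSF arrays all lay below marrow, as in 13.7% of all genes, and in 1, H2-Oa, above it, as in 11.7%.

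In CWHM-823+tGro-b blood against marrow 0 of 10 members passed limma's test, where 0.370% of all genes did. Marrow had a part in choosing the family, and in comparisons with it a lack of calls does not show that groups are alike. Groups did not overlap for H2-Aa, which was lower, as in 5.27% of all genes, nor for H2-Ab1 and H2-Eb1, which were higher, as in 4.46%. In AMD3100 blood against marrow 0 of 10 passed, where 1.42% of all genes did. With the slide as a replicate block the count there was 3 (H2-Ab1 and H2-Oa higher, H2-Aa lower), where 13.5% of all genes were called. Groups did not overlap for H2-Aa, which was lower (11.9% of all genes), and for Ciita, H2-Ab1 and H2-Oa, which were higher (14.6%). Without marrow array 3 both counts of calls were again 0, while without AMD3100 array 3 both were 1 (H2-Aa).

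Between the blood groups, G-CSF against CWHM-823+tGro-b gave 2 members called lower (H2-Eb1 and Cd74), where 0.256% of all genes were. With the slide block H2-Ab1 was added, for a count of 3 where 1.08% of all genes were called lower. The count of 2 became 0 without G-CSF array 3 and 1 (H2-Eb1) without G-CSF array 1 or 2 or CWHM-823+tGro-b array 1 or 2. Groups did not overlap for 5 members, all lower (H2-Aa, H2-Ab1, H2-Eb1, Cd74 and, by its brightest probe only, H2-Ob), as in 6.78% of all genes. In G-CSF against AMD3100 blood 5 members were called lower (H2-Aa, H2-Ab1, H2-Eb1, Cd74 and Ciita, the last by the brightest probe), where 18.4% of all genes were, and again 5 with the slide block, where 39.6% were. The same 5 did not overlap, as in 27.8% of all genes. Without G-CSF array 3 or AMD3100 array 1 the count of calls was 3 (H2-Aa, H2-Eb1 and Cd74). Over 19 alternatives to the main processing, Ciita was called in 14 and H2-Ab1 in 17. The comparisons of G-CSF blood share its 3 arrays and so are not separate evidence.

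All genes shifted as well, which sets the scale for the members. In G-CSF blood against marrow the median log2 difference was -0.41 over the 10 members and -0.25 over all genes, and in G-CSF against AMD3100 blood -0.84 against -0.37. Quantile normalization moved the medians of all genes in these comparisons to -0.10 in both. Relative to the median of all genes, the G-CSF against marrow difference was -4.35 for H2-Aa, -2.92 for H2-Eb1, -2.04 for Cd74 and -0.12 for H2-Ab1.

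CWHM-823+tGro-b blood against AMD3100 blood is the comparison that played no part in choosing the family. None of the 10 members passed limma's test, where 0.147% of all genes did. An unadjusted p under 0.05 was seen in 1 member, Ciita, and in 4732 of all 23795 genes. The difference of Ciita was -0.78 ± 0.34 (adjusted p = 0.241), lower on all 3 slides and without overlap, as in 13.1% of all genes. The second probe gave 0.26 ± 0.31. With the slide as a replicate block Ciita was called (adjusted p = 0.0402), where 16.8% of all genes were. H2-Aa differed by -0.62 ± 0.52 (adjusted p = 0.479), Cd74 by -0.30 ± 0.44 (adjusted p = 0.672), H2-Ab1 by 0.05 ± 0.30 (adjusted p = 0.917) and H2-Eb1 by -0.02 ± 0.66 (adjusted p = 0.983). In the remaining 5 members the adjusted p in limma's test ran from 0.450 (H2-Oa) to 0.861 (H2-DMa). A p above the threshold does not show that the groups are alike.

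The E alpha chain that pairs with H2-Eb1 is listed on the array as H2-Ea-ps, the name of the defective gene of the reference strain, and DBA2/J mice belong to the strains that carry a working copy. It is outside the 10 members and was on the list of class II antigen processing. Its level was -3.44, -6.28 and -6.79 on the G-CSF arrays, -0.59, -0.87 and -1.79 on the CWHM-823+tGro-b arrays, -0.95, -2.01 and -0.84 on the AMD3100 arrays, and -5.03, -5.25 and -2.24 on the marrow arrays. It was well above background on all 6 arrays of CWHM-823+tGro-b and AMD3100 blood, but on 1 of 3 in G-CSF blood and 1 of 3 in marrow, so the differences from those groups depend on values near background. In limma's test G-CSF blood differed from AMD3100 blood by -4.23 ± 0.90 (adjusted p = 0.0110). Against CWHM-823+tGro-b blood it differed by -4.42 ± 0.90 (adjusted p = 0.0569), which the slide block made a call (adjusted p = 0.0461). The other tests missed the threshold, among them 2.90 ± 0.90 for AMD3100 blood against marrow (adjusted p = 0.124). H2-Eb1 and H2-Ea-ps were thus both higher in AMD3100 and CWHM-823+tGro-b blood than in marrow, by mean level, where H2-Aa was lower.

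The factors that CIITA works through were a list of 7 genes, 6 of them measured, and none of the 6 passed in G-CSF blood against marrow or against CWHM-823+tGro-b blood. Rfx5, a subunit of the X box factor, had -0.81 ± 0.37 against marrow (adjusted p = 0.252, and 1 of 6 had an unadjusted p under 0.05). Of all 23795 genes, 4665 had an unadjusted p under 0.05 in G-CSF blood against marrow and 2429 against CWHM-823+tGro-b blood. In G-CSF against AMD3100 blood 1 rose, Nfyc, a subunit of the Y box factor (0.96 ± 0.30, adjusted p = 0.0341), where 12.6% of all genes did. The slide block gave 1 higher and 1 lower. The call of Nfyc was lost with quantile normalization and in the authors' table. The median of the list was 0.32 there, against -0.37 over all genes.

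Of 12 genes known to act on Ciita or its promoters, 2 fell in G-CSF blood against CWHM-823+tGro-b blood. They were Irf4, a factor of lymphoid and dendritic cells, with -2.43 ± 0.37 (adjusted p = 0.0102), and Pax5, the factor that commits cells to the B lineage, with -1.69 ± 0.31 (adjusted p = 0.0308). The block added 1 gene that rose there. In G-CSF against AMD3100 blood 3 fell and 5 rose (4 and 6 with the slide block), though with quantile normalization 3 rose and in the authors' values 2. Of all genes 18.4% fell and 12.6% rose there, and with the slide block 39.6% fell and 5484 of 23795 rose. Pax5 (-1.74 ± 0.31, adjusted p = 0.00722), Irf4 (-1.76 ± 0.37, adjusted p = 0.0106) and Irf8, a factor of dendritic cells and monocytes (-1.14 ± 0.28, adjusted p = 0.0159), were lower. Spi1, which encodes the myeloid and lymphoid factor PU.1, was higher (1.32 ± 0.30, adjusted p = 0.0134). Pax5 stood at -0.65, -0.19 and -1.31 on the G-CSF arrays, 0.97, 1.41 and 0.54 on the CWHM-823+tGro-b arrays, between 0.85 and 1.11 on the AMD3100 arrays and at 0.06, 0.06 and -0.12 on the marrow arrays. Against marrow 0 of 12 passed limma's test in G-CSF blood (2 had an unadjusted p under 0.05); with the slide block Spi1 was called higher and Pax5 lower. Without marrow array 3 the 5 pathway lists again had 0 calls in that comparison.

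Genes of class II antigen processing are mostly lysosomal proteases. In G-CSF against AMD3100 blood 6 of 10 rose, where 12.6% of all genes were called higher, 1, H2-Ea-ps, fell and 3 did not pass. Cd63, a lysosomal membrane protein, had 1.22 ± 0.22 (adjusted p = 0.00786), Ctsb, cathepsin B, 1.31 ± 0.25 (adjusted p = 0.00874) and Ctsd, cathepsin D, 1.26 ± 0.24 (adjusted p = 0.00879). The median of the list was 1.22, against -0.37 over all genes. Against marrow 0 of 10 passed limma's test in G-CSF blood (4 had an unadjusted p under 0.05), where the median was 0.59 against -0.25. Lgmn, the protease legumain, had 1.60 ± 0.41 there (adjusted p = 0.0729). With the slide block 3 of 10 were called higher in that comparison, where 1961 of all 23795 genes were. Against CWHM-823+tGro-b blood 0 of 10 passed limma's test (4 had an unadjusted p under 0.05), and with the slide block 1 rose and 1 fell.

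MHC class I presentation is the route for peptides from the cytosol. Of its 14 genes 6 rose in G-CSF against AMD3100 blood, where 12.6% of all genes did, and 0 fell. H2-D1, a class I heavy chain, had 1.26 ± 0.22 (adjusted p = 0.00718), Psmb10, an immunoproteasome subunit, 1.51 ± 0.34 (adjusted p = 0.0134) and Calr, a chaperone of class I assembly, 1.05 ± 0.28 (adjusted p = 0.0219). Erap1, another of the 6, was well above background on 0 of 3 AMD3100 arrays. With the authors' values the count was 4. H2-D1 was at 4.17, 3.93 and 4.04 on the G-CSF arrays, 3.60, 3.61 and 3.09 on the CWHM-823+tGro-b arrays, 2.74, 2.76 and 2.85 on the AMD3100 arrays and 3.40, 3.21 and 3.03 on the marrow arrays, so the G-CSF arrays lay above all others. With the slide block the count was 10 of 14, where 5484 of all 23795 genes were called higher. Against marrow 0 of 14 passed in G-CSF blood by limma (4 had an unadjusted p under 0.05, and 4 were called higher with the slide block). The block called 1961 of all 23795 genes higher in that comparison.

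Of 7 costimulation genes 5 were measured. In G-CSF against AMD3100 blood 1 rose, Pdcd1lg2, a ligand of the inhibitory receptor PD-1 (0.86 ± 0.28, adjusted p = 0.0405), and with the slide block 2 rose and 3 fell. Against marrow none of the 5 passed limma's test in G-CSF blood, and 0 had an unadjusted p under 0.05, while 1 was called lower with the slide block. Against CWHM-823+tGro-b blood the slide block gave 1 call, higher.

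**Figure D4:**
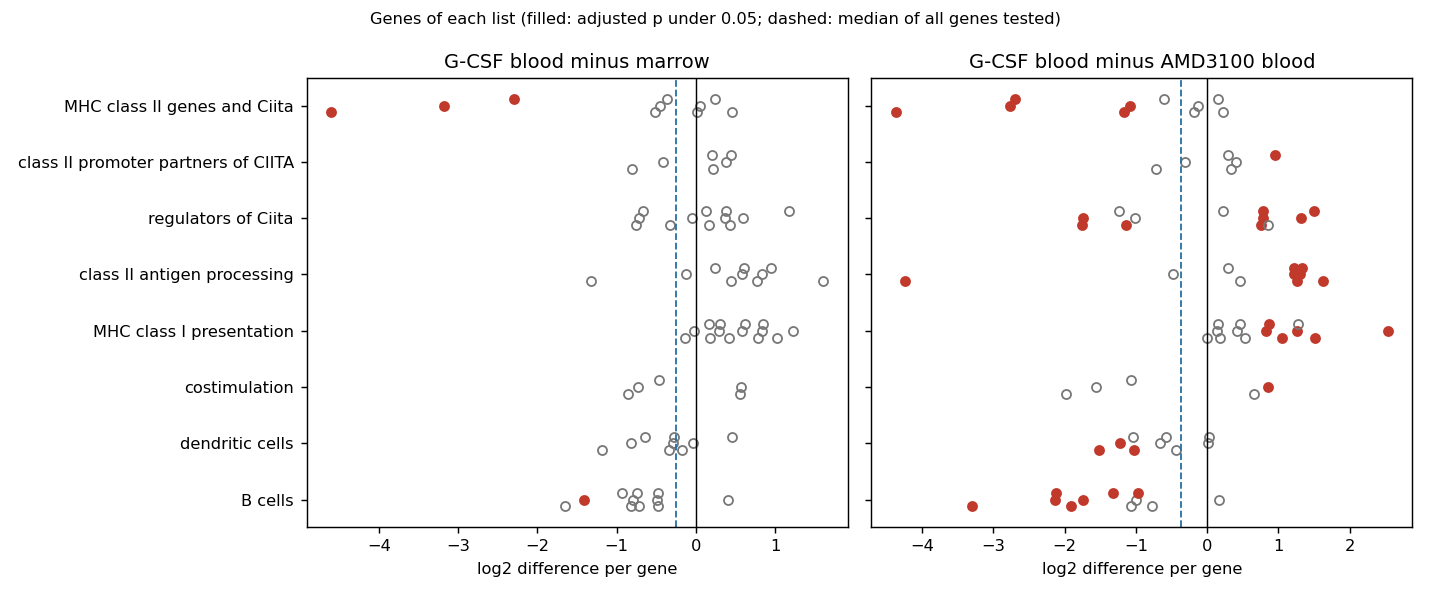
Log2 difference of each gene of the class II family and of 7 lists, for G-CSF blood minus marrow (left) and minus AMD3100 blood (right); filled points have an adjusted p under 0.05 in limma's test and the dashed line is the median of all genes tested; filled members are a description. On the right the processing and class I genes lie mostly above 0, and the B cell genes, with 7 of 11 filled, lie mostly below it.

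B cells are among the cells that carry class II. Of 11 measured B cell genes, 5 fell in G-CSF blood against CWHM-823+tGro-b blood, where 0.256% of all genes did, 7 fell against AMD3100 blood, where 18.4% did, and 1, Fcer2a, the low-affinity IgE receptor, fell against marrow (-1.41 ± 0.25, adjusted p = 0.0142). The slide block gave counts of 5 (CWHM-823+tGro-b), 9 (AMD3100) and 4 (marrow), where 1.08%, 39.6% and 11.3% of all genes were called lower. Among those lower than in CWHM-823+tGro-b blood were Vpreb1, the surrogate light chain of early B cells (-3.00 ± 0.35, adjusted p = 0.00193), Igll1, another surrogate light chain (-3.19 ± 0.45, adjusted p = 0.00640), Blnk, an adaptor of the B cell receptor that was well above background on 2 of 3 G-CSF arrays (-3.48 ± 0.49, adjusted p = 0.00599), and Cd79a, a signalling chain of that receptor (-2.28 ± 0.38, adjusted p = 0.0167). Vpreb1 rose in CWHM-823+tGro-b blood against marrow (2.18 ± 0.35, adjusted p = 0.0208). Cd79b, another signalling chain of the B cell receptor, was by mean level not lower in G-CSF blood than in any other group. Its level was 1.81, 1.52 and 1.77 on the G-CSF arrays and 2.00, 1.26 and 1.45 on the CWHM-823+tGro-b arrays. On the AMD3100 arrays it was 1.49, 1.44 and 1.67, and on the marrow arrays 1.38, 1.11 and 1.40. The summed level of the 12 listed B cell genes, relative to the 75th percentile, ran from 22.7 to 49.9 on the G-CSF arrays, 33.7 to 54.8 on the CWHM-823+tGro-b arrays, 50.3 to 75.3 on the AMD3100 arrays and 32.2 to 58.6 on the marrow arrays. Most of that sum is 1 gene, Cd22, which stood at 3.98 to 5.90 over the 12 arrays, so the sum says little of the other genes. The part of B cells in the class II values was not tested.

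Of 9 measured dendritic cell genes, a list that held no class II gene, 3 fell in G-CSF against AMD3100 blood, where 18.4% of all genes did: Zbtb46 (-1.51 ± 0.36, adjusted p = 0.0153), a factor of classical dendritic cells, Flt3 (-1.23 ± 0.31, adjusted p = 0.0184), the receptor of dendritic and multipotent progenitors, and Ccr7 (-1.03 ± 0.29, adjusted p = 0.0238), a homing receptor. Against marrow and CWHM-823+tGro-b blood 0 of 9 passed limma's test (3 and 1 had an unadjusted p under 0.05). With the slide block 6 fell against AMD3100 blood, 3 against marrow and 0 against CWHM-823+tGro-b blood, where 39.6%, 11.3% and 1.08% of all genes did. The summed level of the 12 listed genes ran from 42.1 to 53.3 on the G-CSF arrays, 49.9 to 80.9 on the CWHM-823+tGro-b arrays, 57.4 to 76.1 on the AMD3100 arrays and 51.4 to 56.2 on the marrow arrays. Siglech, at 4.37 to 5.75, gave the largest part of that sum on each array. Xcr1, which defines a subset, was well above background on none of the 12 arrays. Of 9 monocyte and macrophage genes Cd14 rose in G-CSF blood against marrow (1.71 ± 0.34, adjusted p = 0.0252). In the same comparison 0 of 5 T cell genes and 0 of 7 neutrophil genes passed limma's test, with 1 of each at an unadjusted p under 0.05. Against AMD3100 blood 2 T cell genes and 1 monocyte gene fell, and 4 LSK genes rose, where 18.4% of all genes fell and 12.6% rose. Slamf1, among these LSK genes, was well above background on none of the AMD3100 arrays. In AMD3100 blood against marrow 3 LSK genes fell (Slamf1, Hlf and Mecom), where 216 of all 23795 genes did. With the slide block 4 T cell and 3 monocyte genes fell and 1 monocyte gene rose in G-CSF against AMD3100 blood. By that block 39.6% of all genes fell there. Against marrow the block gave 1 T cell gene lower, 2 monocyte genes higher and 1 lower, and 2 LSK genes higher and 3 lower. Against CWHM-823+tGro-b blood it gave 1 T cell gene lower, and 1 LSK gene higher and 2 lower. Without marrow array 3, which changes the shared estimate of the spread, 3 neutrophil genes and 0 monocyte genes fell in G-CSF against AMD3100 blood. In G-CSF blood against marrow 1 of 9 LSK genes rose (Ly6a, 1.65 ± 0.33, adjusted p = 0.0308) and 1 fell (Hlf, a stem cell factor, -1.19 ± 0.23, adjusted p = 0.0223). In that comparison, without marrow array 3, neither Cd14 nor Ly6a passed, 1 LSK gene fell, and 1 dendritic cell gene and 1 B cell gene fell.

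The members did not share 1 pattern over the 12 arrays. With the mean of the centred levels of H2-Aa, H2-Ab1, H2-Eb1 and Cd74, which holds these genes themselves, the Pearson r was 0.738 for H2-DMb1 and 0.434 for Ciita, and lay between -0.066 and 0.0855 for H2-DMa, H2-DMb2, H2-Oa and H2-Ob. The genes outside the family most like that mean were Ccr9, a chemokine receptor of lymphoid progenitors (r = 0.904), Dntt, the terminal transferase of early lymphocytes (r = 0.894), Slc27a2 (r = 0.894), Lor (r = 0.889), C1rb (r = 0.889), Cdip1 (r = 0.884), Ptafr (r = 0.874) and Tfcp2l1 (r = 0.870). The points share 4 groups and 3 slides, so these are descriptions. Once group means were removed r was 0.541 for Ccr9, 0.402 for Dntt, 0.870 for C1rb and 0.02 for Tfcp2l1. For the members outside that mean it was then 0.756 (H2-DMb1), 0.717 (H2-DMa), 0.538 (H2-Oa), 0.303 (H2-DMb2), -0.140 (H2-Ob) and -0.251 (Ciita).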

How the data were processed

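LSK RNA of 4 groups was read on 12 Agilent 1-colour (Cy5) arrays. Per the labels' protocols the RNA was amplified as whole-transcriptome cDNA and labelled chemically. Per the file headers, the authors extracted the deposited processed signal, an intensity, with Agilent Feature Extraction 11.5.1.1, and no scaling between arrays is recorded. The authors' own normalized intensity, deposited for 30354 probes, served as an alternative. Outlier spots were left out, spots of a probe averaged, and the log2 of the 75th percentile subtracted from log2 signal. A probe entered the test if some group had it well above background on each of its arrays, and the probe with the highest mean stood for a gene. limma 3.58.1 (R 4.3.3) was fitted to all arrays with 1 mean per group. The procedure was tested on simulated data.

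Same-slide arrays carry the same replicate number and deviated together (18 pairs, r 0.26 to 0.616). The slide block is therefore given where it changes a call. The median r of -0.24 for 36 other pairs is no separate baseline, since deviations from a group mean cancel within a group. Named were all members, up to 4 passing genes of a list by p (2 where none passed) and the 8 genes most like the family. Members, lists and tests were chosen with earlier results of these data known. The 11 lists were 5 of the pathway and 6 of cell type markers. The slide block called more genes in every comparison, so its list counts stand beside the counts over all genes in the closing part. Positions are mm9, from the scanner output, without exon annotation. H2-DMa and 1 H2-Ob probe had none. Alternatives are given in the closing part. The sequences of the Ciita probes are not reported here.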

Additional observations from a re-analysis of the deposited data

How the results depend on the processing

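The count of members called changed with the processing as follows. With only probes above background on all 12 arrays, which drops H2-Aa and H2-Eb1 from the test, the counts were 1 for G-CSF blood against marrow, 1 against CWHM-823+tGro-b blood and 3 against AMD3100 blood, with Cd74 called in each. For G-CSF blood against marrow the count was 2 with quantile normalization, the authors' values and no filter on dim probes, since H2-Eb1 was lost. H2-Eb1 passed there in 10 of 18 alternatives, with differences of -4.03 to -2.10. Normexp gave 1 (H2-Aa) for CWHM-823+tGro-b blood against marrow, and the cause was not tested. With the slide as a replicate block the counts were 3 for AMD3100 blood against marrow, 3 for G-CSF against CWHM-823+tGro-b blood and 1 for CWHM-823+tGro-b against AMD3100 blood. Leaving out each array in turn gave 1 to 3 for G-CSF blood against marrow (1 when G-CSF array 3, marrow array 2 or marrow array 3 was left out), 0 to 1 for CWHM-823+tGro-b and 0 to 1 for AMD3100 blood against marrow (1 without AMD3100 array 3, H2-Aa in each), 0 to 2 for G-CSF against CWHM-823+tGro-b blood (0 when G-CSF array 3 was dropped, 1 for G-CSF array 1 or 2 or CWHM-823+tGro-b array 1 or 2), 3 to 5 for G-CSF against AMD3100 blood (3 when G-CSF array 3 or AMD3100 array 1 was dropped) and 0 to 0 between the last groups. In G-CSF against AMD3100 blood Ciita passed in 14 of 19 alternatives and H2-Ab1 in 17 of 19. No called member changed sign. Arms left with 2 arrays borrow the spread of the other groups.

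Over all genes the slide block gave 4647, 257, 3215, 523, 14903 and 4007 calls, against 413, 88, 338, 149, 7390 and 35, in the order G-CSF, CWHM-823+tGro-b and AMD3100 blood against marrow, G-CSF against CWHM-823+tGro-b, G-CSF against AMD3100 and CWHM-823+tGro-b against AMD3100 blood. Leaving out 1 array gave 186 to 742, 53 to 86, 62 to 322, 71 to 183, 1470 to 10238 and 11 to 72. For AMD3100 blood against marrow quantile normalization gave 745 calls, the authors' values gave 547, normexp and no filter 169 and 172, and every probe 507. For G-CSF blood against marrow the authors' values gave 267 calls, of which 221 were higher and 46 lower, where the 413 were 281 and 132. Normexp gave 290 higher and 63 lower there, and quantile normalization 282 and 70. For G-CSF against CWHM-823+tGro-b blood the authors' values gave 99. For G-CSF against AMD3100 blood quantile normalization gave 3302 higher and 2627 lower and the authors' values gave 3072 and 2543, against 3008 and 4382. For CWHM-823+tGro-b against AMD3100 blood quantile normalization called 85 genes higher and 22 lower, and the counts were 9 with normexp, 8 in the authors' table, 5 with the strict filter and 61 with every probe.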
